A study of Mus musculus with 4 samples.

Results

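The Gimap genes encode GTPases of immunity-associated proteins, a family of small guanine nucleotide-binding proteins found mainly in lymphocytes. All 8 genes of the mouse family were followed here by their symbols (Gimap1, Gimap3, Gimap4, Gimap5, Gimap6, Gimap7, Gimap8 and Gimap9), out of 31253 genes listed in each of 4 single-cell RNA libraries. Several members sit on internal membranes such as those of lysosomes, mitochondria or the endoplasmic reticulum, and the family is best known for keeping naive, resting T cells alive. Loss of Gimap5 in rats and mice leaves few peripheral T cells, and Gimap1 is needed by mature T and B cells.

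Each library was made from CD45+ CD8+ cells sorted from tumours of MB49, a mouse bladder carcinoma line, with 3 mice pooled per library and 1 library per group. For WT (wild type) and KO (BFAR-CD8-KO), tumours grew under the skin of C57BL/6Slac mice aged 10 to 12 weeks. BFAR is an apoptosis regulator anchored in endoplasmic reticulum membranes. Which driver deletes it in CD8+ T cells is not given in the labels. The Young and Aged libraries came from hosts aged 8 to 10 weeks of the strains B6.129S7-Rag1tm0Mom/J (Young) and B6.129S7-Rag1tm1Mom/J (Aged), named as the labels have them. On the day of tumour inoculation the hosts received an intravenous transfer of CD8+ T cells from donors aged 8 weeks (Young) or 18 months (Aged). The kits differed between the pairs (3' chemistry for WT and KO, immune profiling for the other pair), so levels were compared within a pair and not across pairs. With 1 library per group no spread between replicates exists, no significance test was made, and every interval below covers counting error only.

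Cells were barcodes with at least 1000 UMIs (unique molecular identifiers, one per captured transcript), 500 genes or more and mitochondrial UMIs of 10% or less, that also held at least 1 UMI of a CD3 gene and 1 of a CD8 gene. These were 8966 of 9746 barcodes in WT, 8153 of 8665 in KO, 9803 of 11060 in Young and 8252 of 9048 in Aged. The libraries held 68017515 to 85401443 UMIs, and median depth was 6341 UMIs per cell in WT, 6870 in KO, 4510 in Young and 5768 in Aged. Bfar, the gene given as deleted, stood at 32.1 UMIs per 1000000 UMIs (CPM, 95% interval 30.9 to 33.4) in WT and 22.4 CPM (21.3 to 23.5) in KO, and at 22.1 and 26.02 CPM in Young and Aged. Transcripts were thus still counted in KO, and since the deleted exons are not given, a 3' tag outside them would not check the label. WT and KO shared 20 barcodes, 16 of them among these cells, and Young and Aged shared 145, of which 114 were among these cells; KO shared 1 with Young and 1 with Aged. Without the barcodes shared within a pair the ratios of the summed family given below were 0.784 (KO over WT) and 1.11 (Aged over Young), as with them.

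All 8 genes lie side by side on chromosome 6 of mm10 between positions 48647234 and 48770851, a span of 124 kb, in the order Gimap8, Gimap9, Gimap4, Gimap6, Gimap7, Gimap1, Gimap5, Gimap3. Gimap6 and Gimap3 are on the minus strand and the other members on the plus strand. The 100 bases before the RefSeq start are shown for Gimap7, Gimap1 and Gimap6, which are a choice and not a sample of the family. Gimap7 was the member that differed most within both pairs and by Gzmk, and Gimap6 the member whose cells most often held Gimap7 too. Gimap1 differed least between KO and WT after Gimap8, which is not shown. Sequences are RefSeq's (GRCm38.p6, 5′ to 3′ on the gene's strand), and capitals mark a RUNX motif (TGTGGT or, on the other strand, ACCACA).
Gimap7: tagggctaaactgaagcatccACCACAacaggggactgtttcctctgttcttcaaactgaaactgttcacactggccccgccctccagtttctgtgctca
Gimap1: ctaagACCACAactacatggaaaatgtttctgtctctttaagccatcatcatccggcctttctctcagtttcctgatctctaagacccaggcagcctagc
Gimap6: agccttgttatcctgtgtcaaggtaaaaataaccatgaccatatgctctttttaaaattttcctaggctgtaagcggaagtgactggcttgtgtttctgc
The windows are chr6:48718521-48718620 (plus) for Gimap7, chr6:48738947-48739046 (plus) for Gimap1 and chr6:48708245-48708344 (minus) for Gimap6. RUNX factors are regulators of CD8+ T cell genes, and the motif is in the 250 bases before the start of Gimap1, Gimap4 and Gimap7, or 3 of the 9 annotated member starts (Gimap8 has 2). It is in 14.05% of all 32851 windows of that length in the table. A further search on both strands found CACCC, a core that KLF factors bind, before 6 of the 9 member starts and in 52.01% of all windows. TGTTTAC, bound by FOXO factors, was before Gimap3 only among the members and in 3.17% of all windows, and CCGGAAG, an ETS motif, was before no member start and in 6.91% of all windows. These matches describe letters, not binding.

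Features of the locus bear on how reads are assigned. Gimap3 and Gimap5 share 190 exact stretches of 50 bases, out of 2096 such windows in the compared transcript of Gimap3 and 1904 in that of Gimap5, so their counts are less certain than those of the other members, none of which shared one. Gm28053 is an annotated transcript model that runs from the start of Gimap7 into Gimap5 on the same strand and shares 81 exonic bases with Gimap7, 198 with Gimap1 and 153 with Gimap5. All 81 bases shared with Gimap7 are within the first 500 of its exonic bases. Gm28053 held 57 UMIs in WT and 40 in KO but 663 in Young and 861 in Aged. Gimap1 also overlaps an antisense model, Gimap1os, and the labels do not say whether counting used strand.

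The cells carried the markers of CD8+ T cells. Cd3d was seen in 95.07% to 98.55% of cells per library and Cd8b1 in 94.68% to 96.24%, which the choice of cells fixes in part. Trac, the constant segment of the T cell receptor alpha chain, was seen in 95.27% of WT, 95.25% of KO, 61.95% of Young and 70.92% of Aged cells. Summed markers of mast cells or basophils in the same cells stood at 730.0 CPM in WT and 267.8 in KO, those of tumour or epithelial cells at 333.6 and 114.5 CPM, and those of fibroblasts at 222.4 and 33.8 CPM. In the other pair the tumour or epithelial markers stood at 182.6 CPM in Young and 48.7 in Aged, those of fibroblasts at 27.7 and 10.8 CPM, those of dendritic cells at 40.3 and 10.15 CPM and those of myeloid cells at 71.6 and 43.1 CPM. Mast or basophil markers there stood at 1.32 and 1.87 CPM. Over the 4 libraries NK markers ran from 36.1 to 86.2 CPM, endothelial markers from 15.3 to 21.3 CPM and B cell markers from 2.5 to 4.6 CPM. Markers of gamma-delta T cells stood at 13.3 CPM in WT and 2.24 in KO, and at 0.510 in Young and 0.169 in Aged. Markers of CD4 and regulatory T cells (Cd4 and Foxp3) stood at 3.44 CPM in WT and 7.70 in KO, and at 1.66 in Young and 7.98 in Aged. Foxp3 alone stood at 3.31 CPM in WT and 7.19 in KO, and at 0.987 in Young and 0.844 in Aged. Cd4 alone stood at 0.131, 0.503, 0.674 and 7.14 CPM in the same order. Genes of the marker lists at 0 included Siglech in KO, Cd209a, Krt5 and Pdgfrb in Aged, Ms4a2 in Young and the gamma-delta gene Tcrg-C1 in each library. Values without every cell that held a marker UMI of another type stand beside the comparisons of KO with WT and of Aged with Young. That filter is broad. Klre1 of the NK list alone was seen in 11.4% of WT, 16.2% of KO, 8.12% of Young and 8.62% of Aged cells. How many of the cells it drops were of another type was not tested. Of the family and Gimap7 ratios by gate, leaving those cells out turned the direction of 1, Gimap7 by Pdcd1 in KO (log2 -0.09 with and 0.10 without them).

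The summed family made up 1508.5 CPM in WT (95% interval 1499.8 to 1517.3), 1182.9 in KO (1174.8 to 1191.0), 1305.0 in Young (1295.9 to 1314.1) and 1450.0 in Aged (1440.8 to 1459.3). That is 12.8 family UMIs per cell in WT, 10.1 in KO, 8.09 in Young and 11.45 in Aged. At least 1 family UMI was seen in 97.64% to 98.88% of cells of each library. As a background, the tumour or epithelial barcodes without any CD3 or CD8 UMI, at median depths of 25406.5 to 38988.5 UMIs, held a family UMI in 69 of 315, or 21.9% (17.5 to 26.9). By library that share was 40.2% in WT, 14.3% in KO (14 barcodes), 21.05% in Young and 9.52% in Aged. Levels of different members are not set against each other, since the values are not per length.

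**Figure D1:**
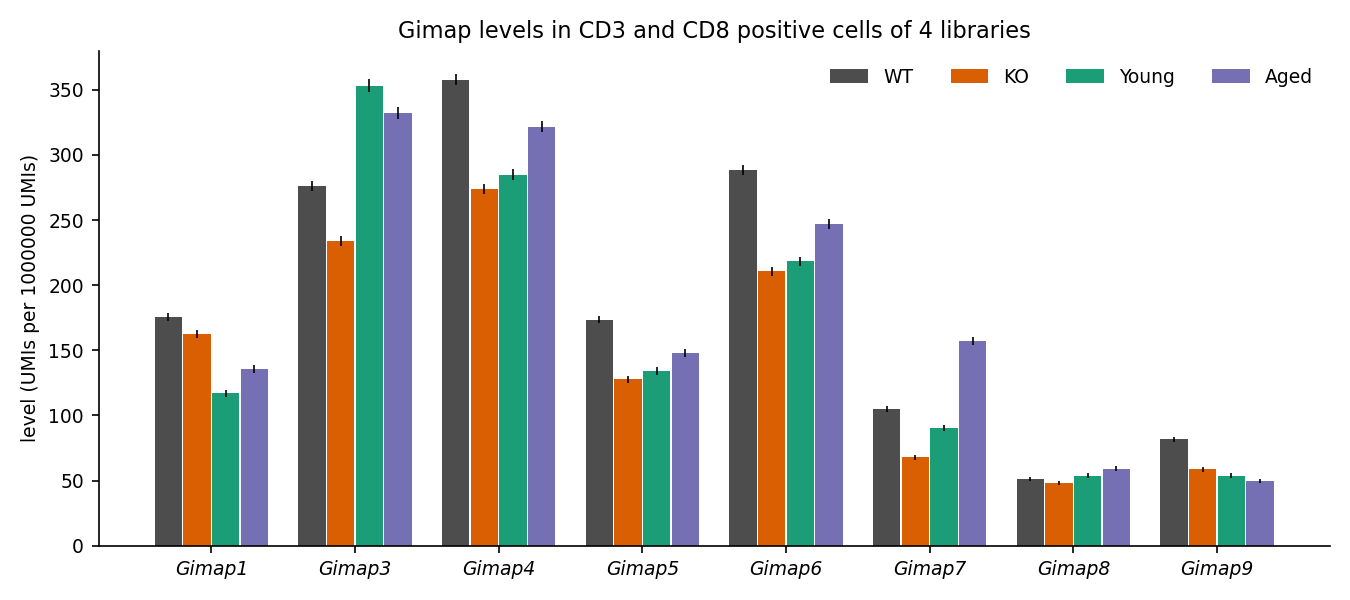
Level of each Gimap member in the CD3 and CD8 positive cells of each library, in UMIs per 1000000 UMIs (CPM), as bars from 0 with exact 95% Poisson intervals; 1 library per group. For all 8 members the KO bar is below the WT bar, and Gimap7 is at 90.2 CPM in Young and 157.1 in Aged. Heights are read within a gene, and within a pair of libraries.

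The first comparison asked whether loss of BFAR in CD8+ T cells went with another level of the family. Every member was lower in KO than in WT, and the summed family stood at 0.784 times the WT level (0.777 to 0.791). Gimap7 differed most and was the one member past 1.5 times. Gimap1, which mature T cells need, and Gimap8, the member with several GTPase domains, differed least. Of all measured genes 32.9% had a lower ratio than Gimap1 and 37.1% a lower ratio than Gimap8.

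Gimap7, a GTPase that can stimulate GTP hydrolysis by other family members, stood at 104.6 CPM (102.3 to 106.9) in WT and 67.8 CPM (65.9 to 69.8) in KO, a ratio of 0.648 (0.625 to 0.672). It was the 1 member of 8 that was at least 1.5 times lower, where 3.09% of all 7415 measured genes were, and no member was at least 1.5 times higher, as 0.607% of all genes were. Measured genes were those with 20 or more UMIs over both sides and 10 CPM or more on 1 of them. Gimap9 stood at 81.7 CPM in WT and 58.5 in KO, a ratio of 0.716 (0.688 to 0.745).

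Gimap6, which binds a GABARAP-type autophagy protein, was at 288.2 CPM in WT and 210.7 in KO, a ratio of 0.731 (0.716 to 0.747). Gimap5, the survival factor of peripheral T cells, was at 173.6 and 127.6 CPM, a ratio of 0.735 (0.716 to 0.755). Gimap4, linked to the pace of T cell death, was at 357.6 and 273.6 CPM, a ratio of 0.765 (0.751 to 0.780). These members thus lay close together, at about 0.7 to 0.8 of the WT level. Gimap3, a mitochondrial relative of Gimap5, was at 276.1 and 234.0 CPM, a ratio of 0.848 (0.830 to 0.865). Gimap1 was at 175.8 and 162.8 CPM (0.926, 0.903 to 0.950) and Gimap8 at 51.05 and 47.8 CPM (0.937, 0.894 to 0.982). The median of the 8 ratios was 0.750, and that of all measured genes 0.967. A lower level in summed cells does not separate fewer cells with the transcript from less transcript per cell.

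The shares of cells were compared after each cell was thinned to 2000 UMIs. This left out 80 WT and 45 KO cells as too shallow. Gimap6 was then seen in 42.07% of WT cells (41.04 to 43.1) and 32.19% of KO cells (31.2 to 33.2), and Gimap7 in 18.8% (17.97 to 19.6) and 12.3% (11.6 to 13.03). Without thinning the shares were 73.8% and 62.9% for Gimap6 and 42.06% and 31.2% for Gimap7. A cell showed 2.44 different members on average in WT and 1.94 in KO, and none at all in 10.35% (9.73 to 11.01) and 17.1% (16.3 to 18.0). At least 3 members were seen in 45.6% of WT and 32.7% of KO cells. Members per cell were lower in KO by each of these measures.

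The WT and KO cells differed in the gate genes. At least 1 UMI of Klf2, whose product keeps T cells quiescent and able to recirculate, was seen in 48.2% of WT and 39.5% of KO cells, and one of Gzmk, the granzyme K gene of memory-type CD8+ T cells, in 39.65% and 33.8%. Pdcd1, which encodes the inhibitory receptor PD-1, was seen in 63.3% and 63.9%, and Mki67, a marker of cycling cells, in 13.35% and 12.4%. The family ratio was 0.800 in cells with Klf2 and 0.787 in cells without, 0.863 and 0.749 with and without Gzmk, 0.773 and 0.811 with and without Pdcd1, and 0.875 and 0.752 with and without Mki67. All 4 gates together cut each library into 16 strata. Over the 14 strata with at least 50 cells in both libraries, the family was lower in KO in 13, Gimap6 in 14 and Gimap4, Gimap5, Gimap7 and Gimap9 in 13 each, while Gimap1 and Gimap8 were lower in 9.

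With the strata given equal weights, Gimap7 stood at 0.704 and with their mean shares at 0.679, so that no member was then past 1.5 times. Without cells that held any marker UMI of another cell type, the family ratio was 0.722, and Gimap7 stood at 0.554. In cells of 4000 to 8000 UMIs the family ratio was 0.742 (0.732 to 0.752), and in those of 2000 to 4000 and 8000 to 16000 UMIs it was 0.7905 and 0.750.

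**Figure D2:**
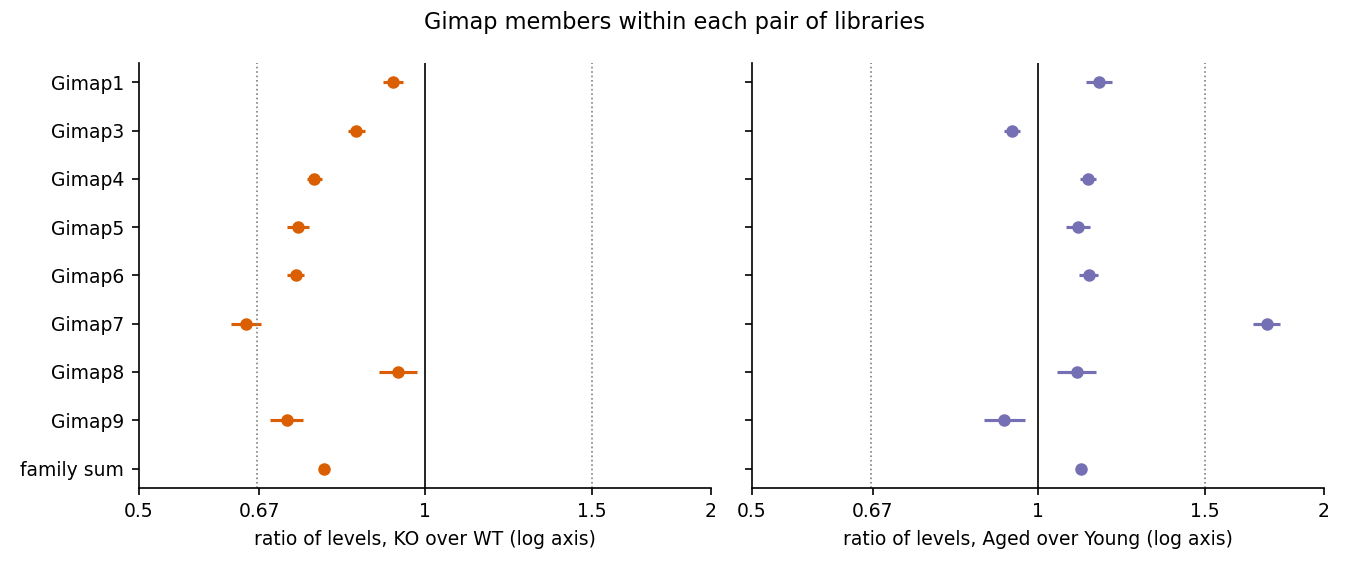
Ratio of levels within each pair (left, KO over WT; right, Aged over Young) for the 8 members and their sum, on a log axis; points are ratios, bars exact 95% counting intervals, the solid line 1 and the dotted lines 1.5 times either way. On the left all 8 members lie below 1, with Gimap7 at 0.648; on the right Gimap7 stands apart at 1.74 and Gimap3 and Gimap9 lie below 1.

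The second comparison asked whether CD8+ T cells of old donors differed from those of young donors after transfer into the tumour-bearing hosts. Gimap7 was the member set apart, at 1.74 times the Young level in Aged (1.685 to 1.80). The summed family stood at 1.11 times the Young level (1.101 to 1.12), and 6 of 8 members were above 1. A ratio above 1 was common among all measured genes. Gimap7 apart, the members above 1 had from 61.3% (Gimap8) to 75.7% (Gimap1) of those genes below them.

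Gimap7 stood at 90.2 CPM (87.8 to 92.6) in Young and 157.1 CPM (154.0 to 160.1) in Aged. It was the 1 member of 8 at least 1.5 times higher, as 2.62% of all 7938 measured genes were, and no member was at least 1.5 times lower, as 3.83% of genes were. Of all measured genes 98 had a larger ratio. The share of thinned cells with Gimap7 was 16.3% (15.5 to 17.06) in Young and 26.4% (25.4 to 27.3) in Aged, and 33.9% and 55.8% without thinning. Thinning left out 611 Young and 201 Aged cells.

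The other ratios lay between 0.922 and 1.16. Gimap1 was at 116.9 CPM in Young and 135.8 in Aged (1.16, 1.125 to 1.20), Gimap6 at 218.3 and 247.0 (1.13, 1.106 to 1.16), Gimap4 at 284.9 and 321.8 (1.13, 1.107 to 1.15), Gimap5 at 133.9 and 147.7 (1.10, 1.07 to 1.14) and Gimap8 at 53.6 and 58.9 (1.10, 1.05 to 1.15). Gimap3 was at 353.3 and 332.1 CPM (0.940, 0.922 to 0.958) and Gimap9 at 53.75 and 49.6 (0.922, 0.878 to 0.969). The direction of Gimap3, Gimap8 and Gimap9 did not hold under every alternative. The median member ratio was 1.12 and that of all measured genes 1.06. A thinned cell showed 2.23 members on average in Young and 2.41 in Aged, and none in 11.4% (10.7 to 12.05) and 8.74% (8.14 to 9.38).

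Gzmk was seen in 53.96% of Young and 71.3% of Aged cells, and Pdcd1 in 42.8% and 62.07%, while Klf2 (59.9% and 57.96%) and Mki67 (17.8% and 19.6%) were closer. Gimap7 was higher in Aged within each side of each gate. The ratio was 1.61 in cells with Gzmk and 1.65 in cells without, 2.01 and 1.46 with and without Pdcd1, 1.74 and 1.73 with and without Klf2, and 1.87 and 1.71 with and without Mki67. Over the 15 strata with at least 50 cells in both libraries Gimap7, Gimap1 and the summed family were higher in Aged in all 15, Gimap7 by 1.252 to 2.45 times. Gimap9 was higher in 7 of 15.

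The receptor segment Trbv12-1 was seen in 16.6% of Young and 27.9% of Aged cells. Its shares in WT (2.43%) and KO (2.40%) come from the other kit and are not set against these. Without the Young and Aged cells that held Trbv12-1, Gimap7 stood at 1.95 times the Young level and the family at 1.22 times. Without cells with a marker UMI of another cell type the family ratio was 1.04 and that of Gimap7 was 1.64.

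Each library was next split by a single gate gene, comparing cells with at least 1 UMI of it and cells with none. By Klf2, the family was slightly higher in positive cells, with ratios of 1.12 in WT (1.107 to 1.13), 1.14 in KO (1.12 to 1.155), 1.06 in Young (1.04 to 1.07) and 1.10 in Aged (1.08 to 1.11). No member in any library was past 1.5 times, where 3.58% of genes were in WT, 3.07% in KO, 3.35% in Young and 1.85% in Aged. Small as the ratios were, most members lay high among all measured genes. Gimap3 had 95.3% of them below it in WT, 94.4% in KO, 80.2% in Young and 94.95% in Aged. For Gimap6 the shares were 95.4%, 96.8%, 91.8% and 79.7% in the same order. Gimap3 was higher in Klf2-positive cells in 28 of 29 strata matched on the other gates, and Gimap5 and Gimap9 in 26. Gimap7 was below 1 in all 4 libraries (0.826, 0.880, 0.949 and 0.952, in the order WT, KO, Young, Aged). Of all measured genes 12.8%, 17.6%, 36.1% and 38.5% had a lower ratio, in the same order. Gimap1, at 0.968 in WT, was above 60.4% of genes there, so a ratio of 1 was not the middle of all genes. Gimap7 was lower in 15 of 29 matched strata and higher in 14. The Young interval (0.898 to 1.003) included 1, the Young ratio in cells of 2000 to 4000 UMIs was 1.19, and with the gate read after thinning the log2 ratio was 0.10 in Young and 0.06 in Aged.

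Egress and quiescence genes were read beside this gate. Of 18 such genes, 10 of 18 measured were at least 1.5 times higher in Klf2-positive cells in WT, 7 of 18 in KO, 5 of 16 in Young and 7 of 16 in Aged. Of all measured genes 1.55% were so in WT, 1.40% in KO, 2.07% in Young and 1.46% in Aged.

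By Pdcd1, the family stood lower in positive cells, at ratios of 0.859 in WT, 0.820 in KO, 0.710 in Young and 0.762 in Aged. Gimap6 had the lowest ratio in WT, KO and Young and Gimap3 in Aged. Past 1.5 times lower were Gimap6 in KO (277.0 CPM in negative and 181.6 in positive cells, 0.656) and in Young (274.9 and 166.6, 0.606), and Gimap3 in Aged (462.3 and 281.6, 0.609). That is 0 of 8 members in WT and 1 of 8 in each other library. Past 1.5 times in either direction were 6.93% of genes in WT, 5.69% in KO, 7.31% in Young and 12.0% in Aged. Gimap7 was at 1.055, 0.939, 0.780 and 1.07 in the order WT, KO, Young, Aged, and was lower in Pdcd1-positive cells in 22 of 28 strata matched on the other gates. Pdcd1-positive cells were deeper (medians of 6663.5 against 5853.5 UMIs in WT and 6596.5 against 4980.5 in Aged), and their family UMIs per cell were 1.04 to 1.20 times those of negative cells. In cells of 4000 to 8000 UMIs the family ratios were 0.943, 0.949, 0.917 and 0.927, and no member was then past 1.5 times. In cells of 2000 to 4000 UMIs they were 1.08, 1.00, 0.837 and 0.980, so the family was not lower there in WT or KO. With the gate read after thinning the WT log2 ratio was 0.11 in place of -0.22.

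By Gzmk, Gimap7 stood apart from the rest of the family. It was the 1 member of 8 past 1.5 times in each library, where 7.07% of genes were in WT, 4.50% in KO, 2.82% in Young and 8.21% in Aged. In WT its level was 70.55 CPM in Gzmk-negative and 150.1 CPM in Gzmk-positive cells (2.13, 2.03 to 2.23). In KO it was 43.85 and 111.1 CPM, a ratio of 2.53 (2.39 to 2.69). In Young it was 67.8 and 105.2 CPM (1.55, 1.46 to 1.64), and in Aged 111.8 and 169.6 CPM (1.52, 1.44 to 1.60). Gimap7 was higher in Gzmk-positive cells in all 28 matched strata, with a median ratio of 1.97 and a range from 1.27 to 4.09.

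The ratio of Gimap7 by Gzmk was above 1 at every depth read. In cells of 2000 to 4000, 4000 to 8000 and 8000 to 16000 UMIs it was 2.11, 2.67 and 2.15 in WT, 3.04, 3.09 and 2.24 in KO, 1.63, 1.60 and 1.595 in Young and 1.47, 1.65 and 1.81 in Aged. The level was also higher with more Gzmk UMIs in WT, Young and Aged. In WT it was 70.55 CPM in cells with none, 122.4 with 1, 144.7 with 2 to 3 and 177.0 with 4 or more. In Aged it was 111.8, 138.1, 162.4 and 180.8 CPM, and in Young 67.8, 94.9, 101.0 and 115.2 CPM. In KO it was 43.85, 96.07, 120.1 and 117.1 CPM, so the last step was not upward.

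**Figure D3:**
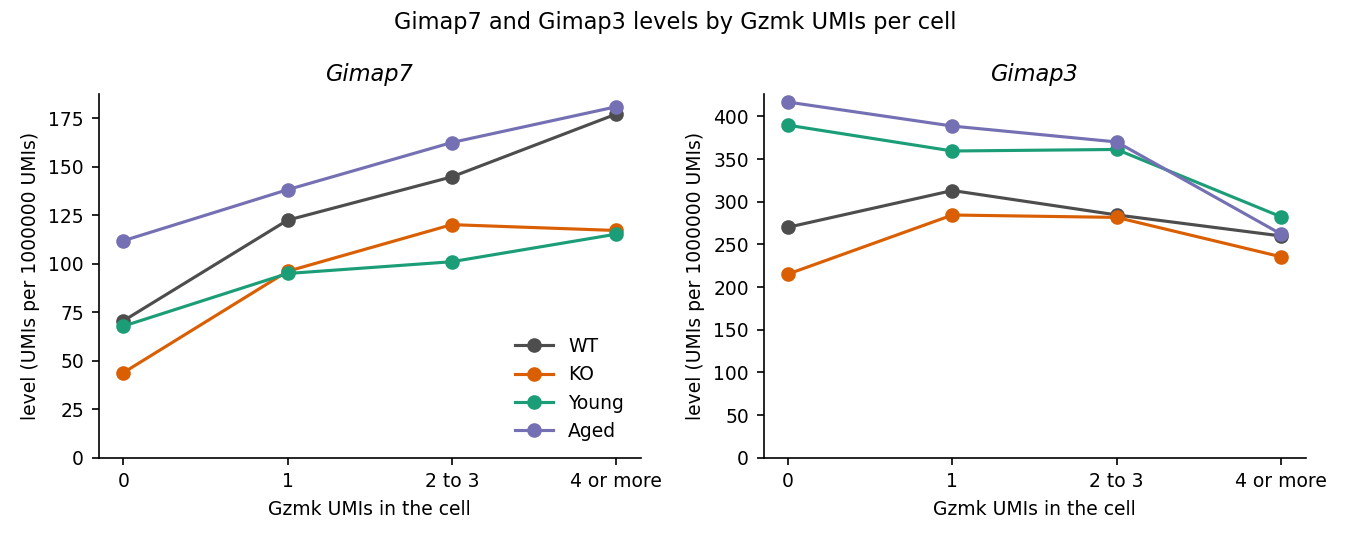
Level of Gimap7 (left) and Gimap3 (right), in UMIs per 1000000 UMIs, in cells with 0, 1, 2 to 3 and 4 or more Gzmk UMIs, one line per library. Gimap7 goes from 70.55 to 177.0 CPM in WT and from 111.8 to 180.8 in Aged, while Gimap3 is lowest at 4 or more Gzmk UMIs in WT (260.0 CPM), Young (282.5 CPM) and Aged (262.3 CPM). Cells with 4 or more were deeper than cells with none, at medians of 7967.5 against 6262 UMIs in WT. In Young these were 6653 against 4082 and in Aged 8442.5 against 5026. Gimap3 was lower in deeper cells, in Young at 554.9 CPM in cells of 2000 to 4000 UMIs and 267.3 at 8000 to 16000.

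The other members differed less by Gzmk, and their direction varied by library. With Gimap7 included, 8 of 8 members were above 1 in WT and in KO, 6 in Young and 3 in Aged. In WT a ratio just above 1 was not high, since 36.6% of all measured genes lay below Gimap8 (1.03). The family ratio, which includes Gimap7, was 1.19 in WT (1.18 to 1.20), 1.37 in KO (1.35 to 1.39), 1.01 in Young (0.995 to 1.02) and 0.933 in Aged (0.919 to 0.948). The Aged value turned with depth, to 1.15, 1.085 and 1.07 within the 3 depth bands. The family was higher in Gzmk-positive cells in 5 of 7 matched strata of Aged and in 25 of 28 over the 4 libraries. Gimap1 was higher in 27 of the 28 and Gimap3 in 17. In KO all 8 members were higher in Gzmk-positive cells, with Gimap6 at 1.45 (263.7 against 181.4 CPM) and Gimap4 at 1.39 (333.5 against 240.5). In Aged, 5 of 8 members were lower. The lowest there was Gimap3, at 308.7 against 416.8 CPM, a ratio of 0.741 (0.719 to 0.763).

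By Mki67, all 8 members had lower levels in positive cells in all 4 libraries. The family stood at 1685.9 CPM in negative and 1004.1 in positive cells of WT, a ratio of 0.596 (0.587 to 0.605). In KO it was 1268.2 and 878.3 CPM (0.693, 0.680 to 0.706), in Young 1526.9 and 868.5 (0.569, 0.559 to 0.578) and in Aged 1673.0 and 1050.6 (0.628, 0.619 to 0.637). Members past 1.5 times lower numbered 5 of 8 in WT, 2 in KO, 5 in Young and 3 in Aged, where 24.6%, 15.8%, 19.8% and 18.2% of all genes were past it in either direction. Fewer genes were past it on the lower side. Of all genes 5.27% lay below Gimap1 (0.671) in WT and 2.65% below Gimap5 (0.682) in KO. In Young 4.99% lay below Gimap1 (0.681) and in Aged 6.07% below Gimap4 (0.684). Each of these members fell just short of 1.5 times lower. Gimap3 was lowest in WT (0.490), Young (0.423) and Aged (0.464), and Gimap6 in KO (0.572). The family was lower in Mki67-positive cells in 28 of 28 matched strata.

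**Figure D4:**
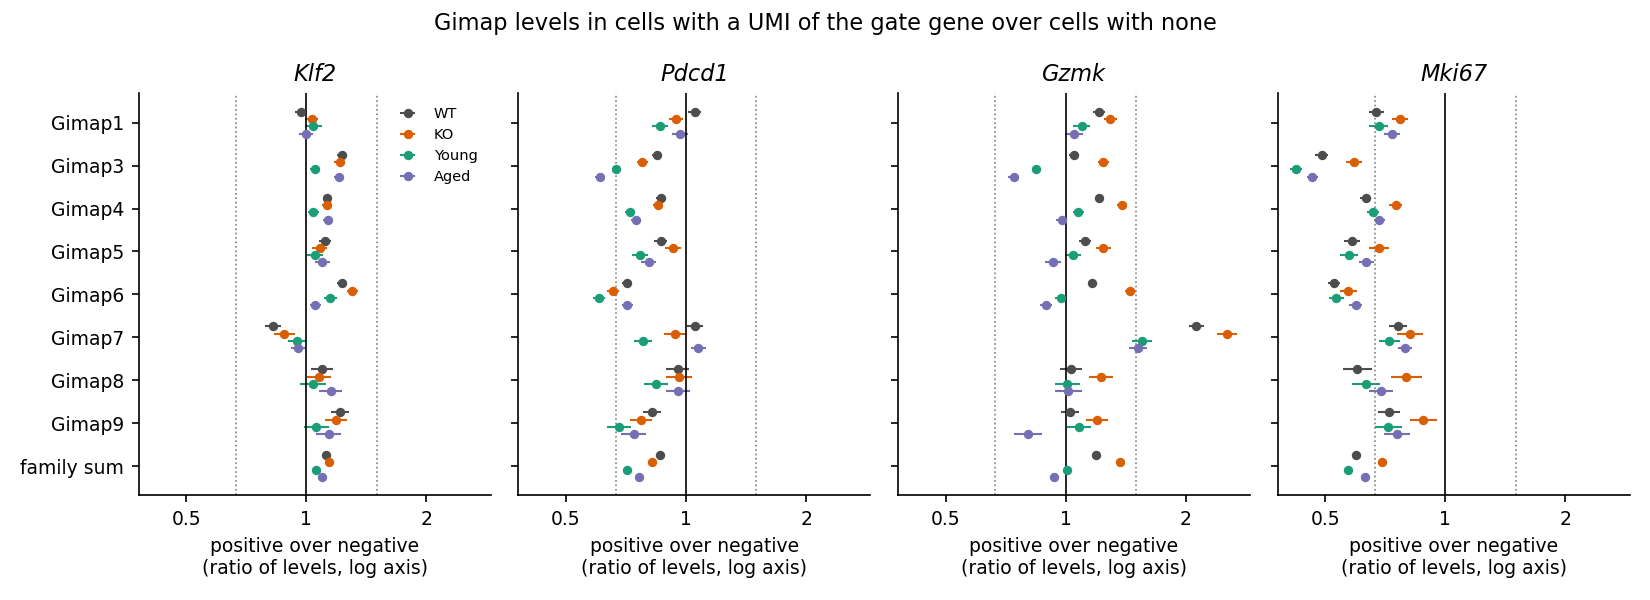
Ratio of levels in cells with a UMI of the gate gene (Klf2, Pdcd1, Gzmk or Mki67) over cells with none, for each member and the family sum, on a log axis; points are libraries, bars exact 95% counting intervals and dotted lines 1.5 times either way. Gimap7 is the member past 1.5 by Gzmk in each library, from 1.52 to 2.53, and every member is below 1 by Mki67.

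Mki67-positive cells were also deeper. Their median depth was 12272 UMIs against 6030 in WT, 12165 against 6589.5 in KO, 9281.5 against 4149 in Young and 11773 against 5253 in Aged. Counted per cell rather than per UMI, the family was higher in Mki67-positive cells, by 1.36, 1.37, 1.34 and 1.44 times. The family level was lower in deeper cells, at 2384.5 CPM in WT cells of 2000 to 4000 UMIs, 1872.0 at 4000 to 8000 and 1527.7 at 8000 to 16000. It was 1884.8, 1388.7 and 1145.4 CPM in KO, 1794.7, 1629.5 and 1137.5 in Young, and 2030.2, 1813.1 and 1420.9 in Aged.

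Within such a band the Mki67 ratio of the family was closer to 1. In cells of 4000 to 8000 UMIs it was 0.952 in WT, 0.991 in KO, 0.751 in Young and 0.870 in Aged, and 2 of the 32 contrasts of a member in a library were past 1.5 times, against 15 over all depths. Over all 3 bands and 4 libraries it ran from 0.741 (Aged, 2000 to 4000 UMIs, 77 positive cells) to 1.03 (KO, 2000 to 4000 UMIs, 25 positive cells). Gimap3 stood at 0.8415, 0.936, 0.639 and 0.739 in the middle band, below the family in each library. Gimap7 stood at 1.225, 1.18, 0.820 and 1.02 there, so its direction by Mki67 turned in WT, KO and Aged. Within 4000 to 8000 UMIs, the ratio of the family by Klf2 was 1.07, 1.10, 1.04 and 1.055.

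**Figure D5:**
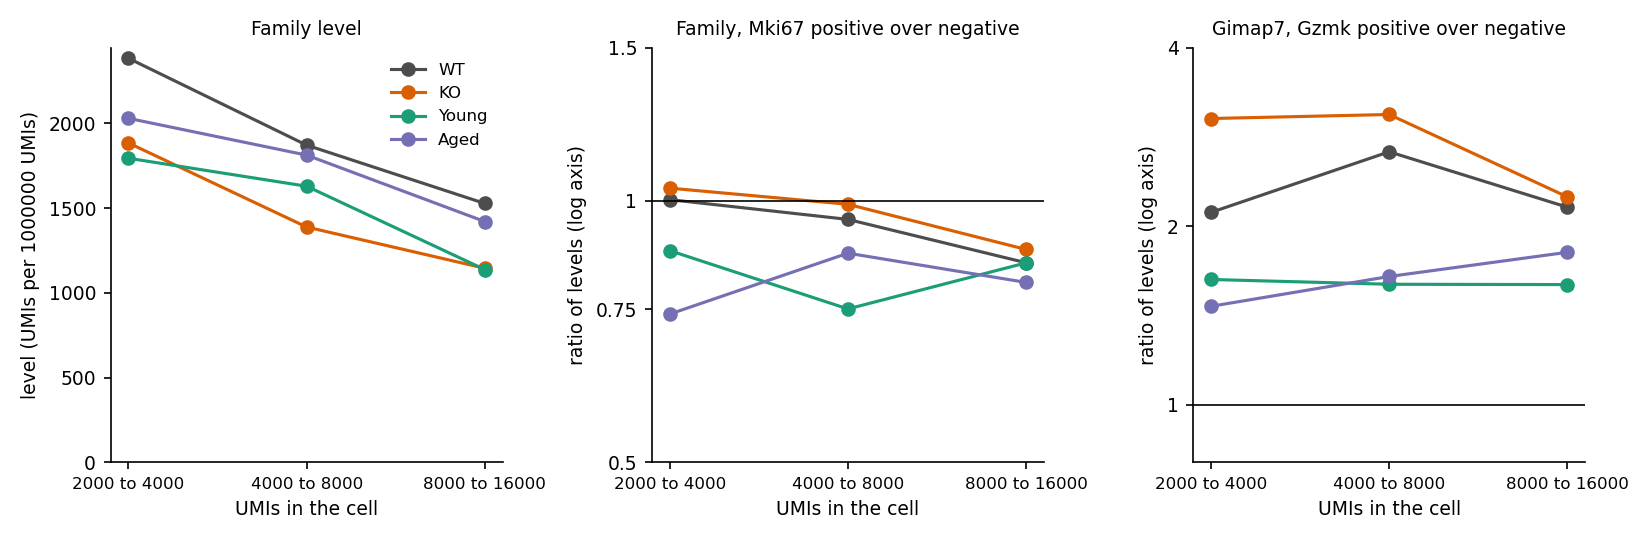
Left, level of the summed family (UMIs per 1000000 UMIs) in cells of 3 depth bands; middle, family ratio of Mki67-positive over negative cells within a band (log axis); right, Gimap7 ratio of Gzmk-positive over negative cells (log axis); one line per library. The family is lower in deeper cells of each library, the Mki67 ratio lies between 0.741 and 1.03, and the Gimap7 ratio by Gzmk stays between 1.47 and 3.09.

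Members were seen together in the same cells. At equal depth, all 56 ordered pairs of members had a higher share of cells with the first among cells with the second than among cells without it, in each library. Both orders of a pair always go the same way, so the 56 are not separate results. Pairs of other genes were not read, so whether this is particular to the family was not tested. The median ratio of these shares was 1.27 in WT, 1.33 in KO, 1.21 in Young and 1.15 in Aged. The highest was Gimap7 in cells with Gimap6 in each library. In WT Gimap7 was seen in 25.4% (24.05 to 26.9) of cells with Gimap6 and 13.95% (13.01 to 14.9) of cells without, a ratio of 1.82. The ratio was 2.07 in KO, 1.59 in Young and 1.45 in Aged. Every cell had 2000 UMIs here, though family levels still differ with a cell's depth before thinning.

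Across the strata of at least 100 cells, the genes with a pattern most like the summed family were N4bp1, Ikbkb, Ifi47, Bcl2 and Znrf2 in KO and WT (Pearson 0.918 to 0.946 over 25 strata, 5278 genes compared). In Aged and Young they were Cd53, Fam189b, Gm8369, Cd8b1 and Gm12216 (0.952 to 0.972 over 27 strata, 5845 genes). Ikbkb encodes a kinase of the NF-kappa-B pathway, Bcl2 an inhibitor of apoptosis, Cd53 a tetraspanin of leukocytes and Cd8b1 a chain of CD8. Those most like Gimap7 were Lyst, Itga4, Eomes, Gtf2i and Ifit1bl1 in KO and WT (0.883 to 0.933) and Sash3, Dpp4, Plac8, Leprotl1 and Cd5 in Aged and Young (0.875 to 0.904). Eomes encodes a transcription factor of memory CD8+ T cells and Itga4 an integrin chain. Among members, the correlation of Gimap7 was highest with Gimap4 in KO and WT (0.847) and with Gimap1 in Aged and Young (0.772), and lowest with Gimap8 (0.551) and Gimap3 (0.430). The strata share libraries, depth and the gate genes, so these are descriptions only.

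Genes that act with the family in survival and autophagy were then read as a list of 14. All 14 were measured in both pairs and none was past 1.5 times. The median ratio was 0.987 for KO over WT, from Bcl2 at 0.804 (0.788 to 0.822) to Bcl2l1, which encodes Bcl-xL, at 1.09 (1.04 to 1.14). It was 0.915 for Aged over Young, from Gabarapl2, the autophagy protein that Gimap6 binds, at 0.801 (0.782 to 0.820) to Bcl2l1 at 1.13 (1.085 to 1.17). By Mki67, Bcl2 stood at 0.542 in WT, 0.658 in KO and 0.549 in Young, the lowest of the list there. These ratios are over all depths, and Mki67-positive cells were deeper, as given above. The part of depth in them was not tested. Of the 18 quiescence and egress genes, 17 were measured in KO over WT. Their median was 1.03, from Dapl1 at 0.671 to Il7r, the receptor chain for interleukin 7, at 1.37. In Aged their median was 0.820 over 16 measured, with 2 past 1.5 times lower (3.83% of all measured genes) and 1 higher (2.62% of all), from Dapl1 at 0.627 to Txnip at 1.53.

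Around the family, 26 other listed genes start within 300 kb, and 4 reached 10 CPM in a library. The long non-coding 4833403J16Rik, which lies between Gimap5 and Gimap3, stood at 0.924 times WT in KO (0.837 to 1.02) and, from 71 UMIs each, at 0.934 times Young in Aged (0.662 to 1.32). Tmem176a and Tmem176b, a pair of membrane protein genes, stood at 0.585 and 0.555 times WT in KO and 0.351 and 0.369 times Young in Aged. In Aged they were thus lower while Gimap7 was higher. The part of the other cell types' markers given above in these values was not tested. Gm28053 was at 0.768 and 1.21 times. Of the sparser neighbours Krba1, Lrrc61, Zfp775, Repin1, Zfp467 and AI854703 stayed under 10 CPM, and Rarres2, seen in 594 WT and 53 KO UMIs, stood at 0.0976 times WT.

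Barcodes with no CD3 or CD8 UMI and a clear marker class show where else the members were seen. The 84 NK barcodes, natural killer cells by their markers, held UMIs of all 8 members, with a family UMI in 81, or 96.4% (89.9 to 99.3). Their family level was 1086.4 CPM in WT (13 barcodes), 1248.9 in KO (9), 695.5 in Young (50) and 762.7 in Aged (12). In the 50 mast or basophil barcodes the family was uneven. Gimap5 was at 160.2 CPM (127.3 to 199.2) in the 35 of WT, from 81 UMIs in 19 barcodes, and at 147.2 CPM in the 13 of KO, from 31 UMIs in 12 barcodes. Gimap4 held 0 UMIs in WT and 1 in KO, and Gimap7 0 and 3. These barcodes carried Cma1 and Cpa3, mast cell proteases, at 17126.1 and 8118.9 CPM in WT, and at 23786.7 and 5656.9 CPM in KO. Mcpt8, a basophil protease, was at 1.98 CPM in WT and 123.5 CPM in KO.

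The 6 endothelial barcodes also held the family, led by Gimap6 with 11 UMIs in the 1 barcode of WT and 14 in the 5 of Young, and with no Gimap3 or Gimap7 UMI. No family UMI was seen in the 26 dendritic barcodes, which allows a share of up to 11.5% of cells with a UMI (3 counts of 26). A family UMI was seen in 3 of 22 myeloid barcodes, in 9 of 72 fibroblast barcodes (12.5%, 5.88 to 22.4) and in both B cell barcodes. The fibroblast class was uneven in its markers. Col1a2 and Pdgfrb were at 0 CPM in its 16 barcodes of WT and its 30 of Young. Col1a2 was at 11437.9 CPM in its 6 of KO and 1496.3 in its 20 of Aged. The class name is therefore less sure in WT and Young. Free RNA also gives UMIs in cells that do not express a gene. The share in tumour or epithelial barcodes, which ran from 9.52% to 40.2% by library, is 1 background for these shares, at other depths and over other libraries. Gimap9 gave 39 of the 97 family UMIs there, against 3.42% to 5.42% of family UMIs in the CD3 and CD8 positive cells.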

How the data were processed

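The authors deposited raw UMI counts per gene and barcode for 4 libraries; per the file headers they were written by Cell Ranger 6.1.1 (WT, KO) or 7.1.0 (Young, Aged), while mm10, Seurat 3.2.3 and Cell Ranger 6.0.0 come from the submitters' processing notes. No label or header used here gives the annotation, cell calling or use of strand or intronic reads. No doublet caller was run, and leaving out the 8% deepest cells was an alternative. Members were matched by symbol. UMIs were summed over CD3 and CD8 positive cells and given per 1000000 UMIs (CPM) with exact Poisson intervals, ratios with exact conditional binomial intervals and shares with exact (Clopper-Pearson) intervals, all at 95%. Matched strata held at least 50 cells on both sides. Correlations used log2(CPM + 1), genes of at least 20 CPM and strata of at least 100 cells. Other cell classes needed 5 UMIs from 2 markers. Named genes were the members, gates, neighbours within 300 kb, the 5 most similar genes per pair and the extremes of 2 lists. The members and lists were chosen with earlier results of these data known; the genes most like Gimap7 and the depth bands were added after the data were seen. A result on 1 gene of the quiescence list is not reported here. The calculations were tested on simulated data (numpy 2.4.6, scipy 1.17.1, pandas 2.3.3).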

Additional observations from a re-analysis of the deposited data

Results flagged for a closer look

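The contrast of Gimap3 by Gzmk went in opposite directions in the 2 pairs. In Gzmk-positive over negative cells it was 1.05 in WT and 1.24 in KO but 0.844 in Young and 0.741 in Aged, each with a counting interval on 1 side of 1. Of all measured genes 42.2% in WT, 90.9% in KO, 7.22% in Young and 6.28% in Aged had a lower ratio. The WT value was thus above 1 but below that of most genes. The difference was not tested, and the pairs also differ in kit, host and transfer. In cells of 4000 to 8000 UMIs the same ratios were 1.20, 1.31, 0.938 and 0.949, and in those of 2000 to 4000 UMIs 1.18, 1.36, 0.911 and 1.09, so that Aged turned there. Gimap3 was higher in Gzmk-positive cells in 4 of 8 matched strata of Young and 1 of 7 of Aged.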

How the results depend on the processing

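No paired analysis was possible because each group held 1 library. The summed family was lower in KO and higher in Aged under every alternative run. For KO the log2 ratio of -0.35 was -0.43 with every cell weighted the same, -0.44 without the 8% deepest cells, -0.47 without cells with a marker UMI of another cell type, -0.28 with equal weights of strata and, among alternatives chosen after seeing the data, -0.32 with strata weighted by their mean shares and -0.43 in cells of 4000 to 8000 UMIs. For Aged the 0.15 was 0.12, 0.092, 0.055, 0.24 and 0.21 under the first 5 of these, in that order, and 0.28 without Trbv12-1 cells. The 1 member past 1.5 times in KO became 2 without cells with another type's marker, 0 with either weighting of strata and 5 with a threshold ratio of 5 to 4 in place of 1.5. At that threshold the contrasts by gate went from 0 to 1 (Klf2), 3 to 14 (Pdcd1), 4 to 8 (Gzmk) and 15 to 30 (Mki67). By Pdcd1 the 3 became 5 without mitochondrial, ribosomal protein and receptor UMIs, 1 without cells with another type's marker, and 0 with every cell weighted the same, without the deepest cells, with the gate read after thinning, and at 4000 to 8000 UMIs. By Mki67 the 15 became 7 with every cell weighted the same, 9 with the gate read after thinning, 2 without the deepest cells and 2 at 4000 to 8000 UMIs. Thinned to 1000 UMIs, cells with at least 3 members were 20.03% in WT, 11.1% in KO, 14.5% in Young and 17.45% in Aged, against 45.6%, 32.7%, 40.9% and 45.6%. Of 184 alternative values of single members within pairs 177 kept their direction, and the other 7 were of Gimap3, Gimap8 and Gimap9 for Aged over Young. Beyond thinning and the alternatives' own construction, the cause of these shifts was not tested. By gate, the direction of the summed family turned under 4 of 9 alternatives for Gzmk in Aged and under 1 of 9 each for Gzmk in Young and Pdcd1 in WT. The non-T classes other than tumour, fibroblast, NK and mast or basophil held at most 26 barcodes, which limits their shares.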
